A study of Homo sapiens with 6 samples.

Results

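The genes described here are 10 interferon-stimulated genes, most of them with antiviral functions: IFIT1, IFIT2, IFIT3, ISG15, MX1, OAS1, IFI44L, BST2, TRIM22 and IL32. Their histone marks were read in H69M and in H69 (NCI-H69), a small cell lung cancer (SCLC) line from which H69M was derived. Each gene was represented by its span on hg19 with 5 kb added on either side, and every deposited peak that overlapped such a window was counted. The windows, between 11074 and 48911 bp long, held 5 of 51091 H3K27ac peaks in H69M and 1 of 38255 in H69, together with 6 of 37853 H3K27me3 peaks in H69M and 7 of 21638 in H69. The study is titled for immunogenic SCLC subpopulations, and its design pairs histone marks with transcriptomes in this isogenic pair of lines. Chromatin immunoprecipitation and sequencing gave 1 H3K27ac library, 1 H3K27me3 library and 1 input library per line. The labels name no drug or cytokine treatment for either line at the time of fixation. The labels name an earlier publication for how H69M was made and do not say whether it is 1 clone. With 1 library per group no difference between the lines has a replicate check, and no p-value was computed.

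Type I interferons act through a receptor at the cell surface, and their signal reaches the promoters of such genes at a motif called the interferon-stimulated response element (ISRE), where it raises transcription. H3K27ac marks active promoters and enhancers. H3K27me3, set on the same lysine by Polycomb repressive complex 2, marks silenced chromatin. The lists hold no read counts, so read depth is unknown, and H69M had the longer list for both marks. A start without a peak is therefore a start at which no enrichment above the caller's threshold was listed, which does not show that the mark is absent. Whether the lines carry the defining markers of SCLC was not analysed here, because no hg19 annotation was at hand.

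H3K27ac lay over the span start of 4 of the 10 genes in H69M (IFIT3, ISG15, MX1 and IL32) and of 1 gene in H69 (MX1). The other 6 genes (IFIT1, IFIT2, OAS1, IFI44L, BST2 and TRIM22) had no H3K27ac peak anywhere in their windows in either line. A start counted as marked when a peak overlapped the 1 kb on either side of it by 1 bp or more. Among all 20 kb tiles of chromosomes 1 to 22 and X, 21.4% held an H3K27ac peak in H69M and 16.3% in H69, but tiles also cover ground without genes, so these percentages are not a rate for promoters. The plot of all windows shows these positions.

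**Figure D1:**
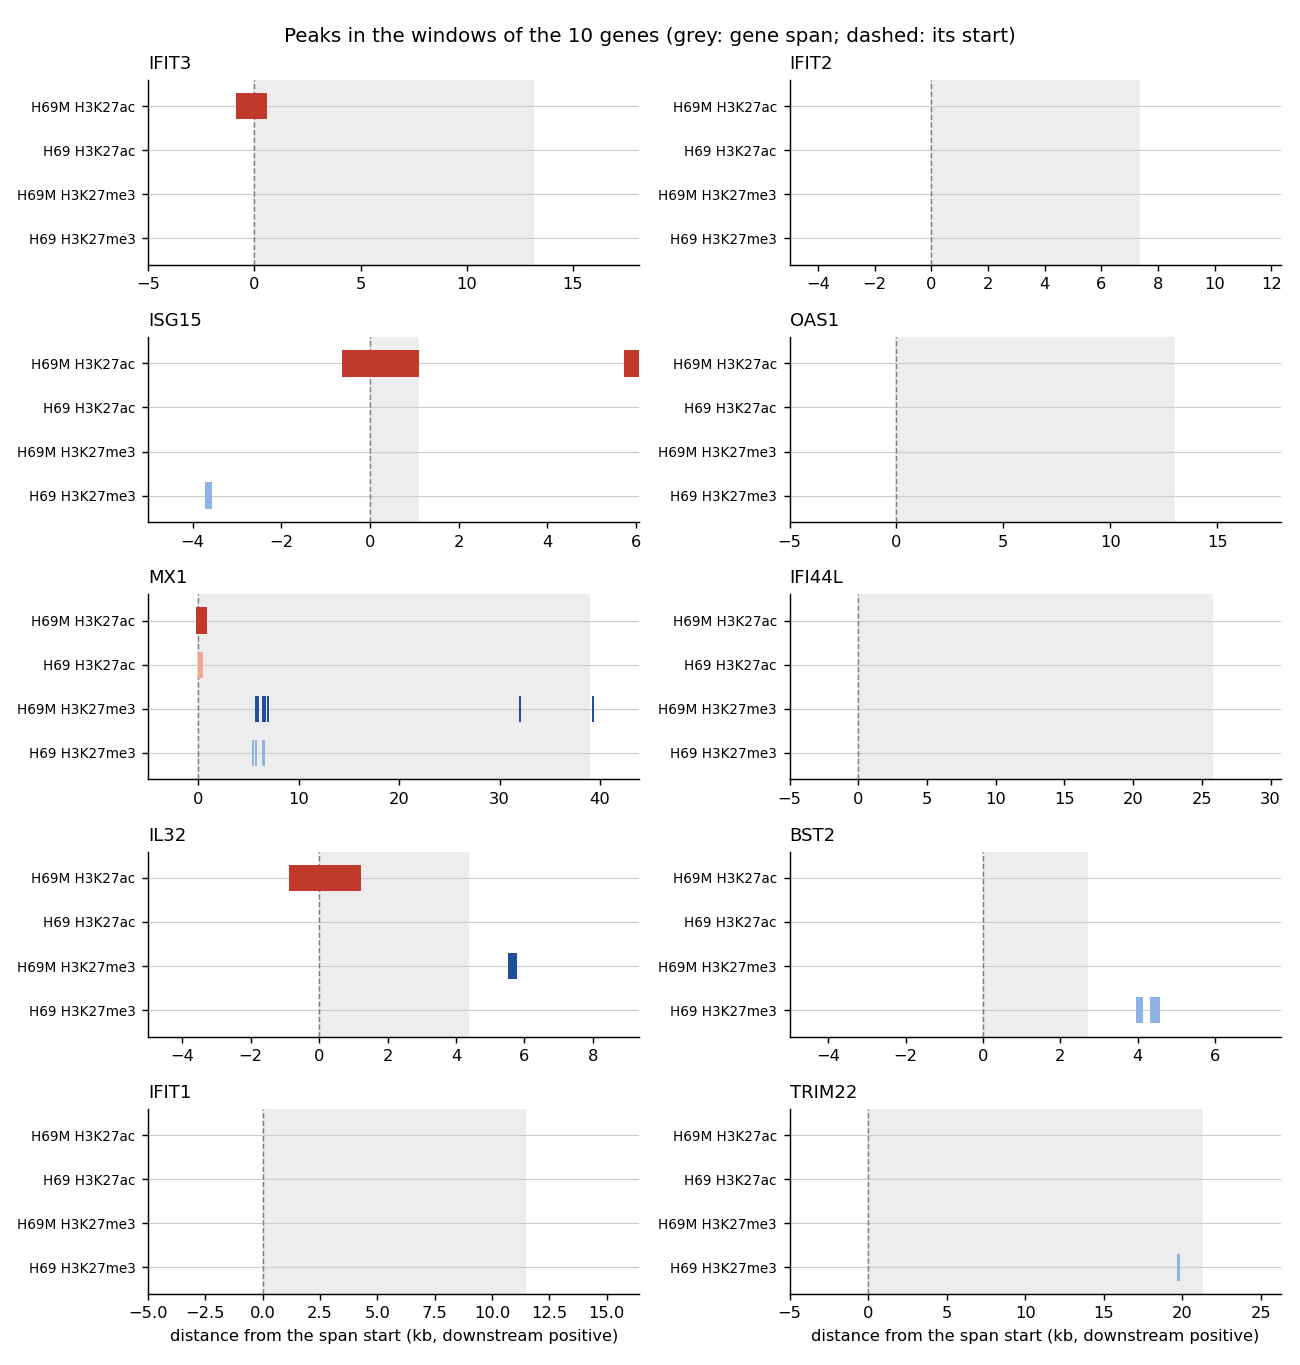
Peaks of the 4 lists in the windows of the 10 genes, drawn against the distance from the start of each gene span in kb (downstream positive, each panel on its own scale), with H69M above H69 for each mark. H3K27ac sits over the dashed start line of IFIT3, ISG15, MX1 and IL32 in H69M and of MX1 alone in H69, and panels without bars hold no peak.

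IFIT3, which binds IFIT1 and strengthens its hold on viral RNA, had an H3K27ac peak in H69M at hg19 chr10:91086717-91088180. It was 1464 bp wide, reached from 885 bp upstream of the start to 578 bp downstream of it, and had a score of 270.0, with 52.6% of the H69M list scoring lower. In H69 no H3K27ac peak was listed within 86.4 kb of this start.

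ISG15, a ubiquitin-like protein that is attached to other proteins after interferon exposure, had an H69M H3K27ac peak at hg19 chr1:948228-949954. The peak was 1727 bp wide, began 619 bp upstream of the start and covered the whole short gene (score 327.7, with 56.4% of the list lower). The nearest H69 peak lay 6.11 kb downstream. A further H69M peak of 2901 bp at chr1:954586-957486 (score 2056.7) entered the window by its edge and overlapped that H69 peak, which was 650 bp wide (score 141.7).

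IL32 encodes a cytokine rather than a direct antiviral effector. Its H69M peak, at hg19 chr16:3114436-3116524, was the widest of the 4 over starts at 2089 bp, spanned 877 bp upstream to 1211 bp downstream and had the highest score of these 4, 800.2, with 70.6% of the list lower. No H69 peak overlapped it, and the nearest one in H69 ended 5.38 kb upstream.

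MX1, a dynamin-like GTPase that blocks influenza and other viruses, was the only gene with H3K27ac at the start in both lines. The H69M peak at hg19 chr21:42791973-42793081 was 1109 bp wide (score 176.8), against 509 bp in H69 at chr21:42792180-42792688 (score 54.7). The covered length in the MX1 window was thus 2.18 times as long in H69M as in H69. The H69 peak stood near the bottom of its list, with 2.95% of peaks scoring lower, and it was lost when peaks scoring below 100 were left out, so this start then counted as marked in H69M alone. Counted over the gene span without flanks, MX1 fell below the 2-fold limit.

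H3K27ac lay in 4 of the 10 windows in either line. By covered length all 4 of these were called longer in H69M (over 2-fold, or listed in H69M only) and 0 shorter. Set beside this, 42.9% of the 35830 20 kb tiles with an H3K27ac peak in either line were called longer (exact binomial 95% interval 42.4 to 43.4, counting error only) and 11.4% shorter. Of the 4 windows, 3 (IFIT3, ISG15 and IL32) were listed in H69M only, as were 30.9% of these tiles. The windows with any H3K27ac thus all went the way in which more tiles of the genome went, and 4 windows are too few to set them apart from it. Over the 10 windows H3K27ac covered 6724 bp in H69M, a mean of 672 bp per window, and 509 bp in H69, a mean of 50.9 bp. The whole lists covered 76.8 Mb in H69M and 48.2 Mb in H69. The H69 amount in the windows leaves out the H69 peaks just beyond the edges at ISG15 and IL32, so the contrast depends on the flank.

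Of the 5 H69M H3K27ac peaks in the windows 3 had no overlapping H69 peak, against 48.4% of all H69M peaks. Whether an H69M peak had a counterpart depended on its score. The IFIT3 and MX1 peaks belong to the class with scores from 100 to under 300, of which 65.1% had no H69 counterpart, and the ISG15 and IL32 start peaks to the class from 300 to under 1000, of which 37.2% had none. An H69M peak of these scores without a counterpart in H69 was therefore not rare across the H69M list. These shares cover all H3K27ac peaks of a class, and no share for peaks over gene starts was computed. The bars of unshared peaks by score show how this share declines with the score in both lines.

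**Figure D2:**
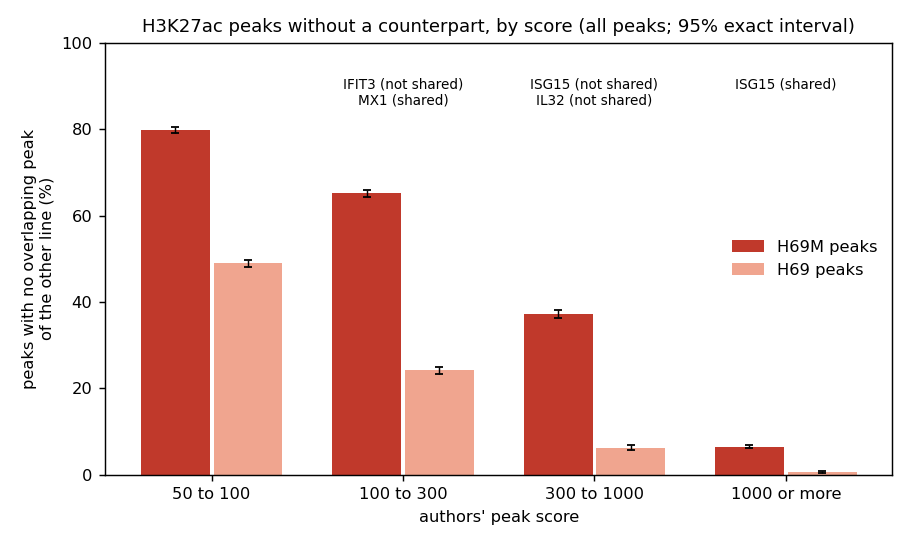
Percent of all H3K27ac peaks that overlap no peak of the other line (y axis), by class of the authors' score (x axis), for H69M peaks (dark) and H69 peaks (light), with exact 95% binomial intervals. The H69M peaks of the windows are written above their score class: IFIT3 stands where 65.1% and IL32 where 37.2% of H69M peaks had no counterpart.

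The RefSeq promoter table (GRCh38.p14, 250 bases before to 50 after a start) held 8 of the 10 genes, all except IFIT2 and TRIM22. The promoters of the 4 genes with H3K27ac at the start are shown first. IFIT3, ISG15 and IL32 were marked there in H69M only, and MX1 in both lines. They are followed by IFIT1 and BST2, whose promoters hold the same motif while no H3K27ac peak was listed at their starts. Capitals mark matches to the ISRE core, which is GAAA, any 2 bases and GAAA again, or its reverse complement, TTTC, any 2 bases and TTTC, searched on both strands; overlapping matches appear as 1 longer run. All are written 5′ to 3′ on the strand of the gene.
IFIT3 (chr10:89327747-89328046, plus strand): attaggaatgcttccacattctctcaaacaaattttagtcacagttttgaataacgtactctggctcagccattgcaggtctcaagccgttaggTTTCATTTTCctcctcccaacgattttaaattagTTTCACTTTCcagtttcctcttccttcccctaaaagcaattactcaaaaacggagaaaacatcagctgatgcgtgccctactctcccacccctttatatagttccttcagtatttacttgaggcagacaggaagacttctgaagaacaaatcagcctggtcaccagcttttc
ISG15 (chr1:1013247-1013546, plus strand): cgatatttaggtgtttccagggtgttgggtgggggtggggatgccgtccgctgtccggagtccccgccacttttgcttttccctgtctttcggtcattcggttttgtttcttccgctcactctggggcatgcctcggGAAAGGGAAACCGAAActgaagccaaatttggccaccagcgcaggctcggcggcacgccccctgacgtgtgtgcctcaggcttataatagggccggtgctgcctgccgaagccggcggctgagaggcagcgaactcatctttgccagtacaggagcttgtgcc
MX1 (chr21:41420308-41420607, plus strand): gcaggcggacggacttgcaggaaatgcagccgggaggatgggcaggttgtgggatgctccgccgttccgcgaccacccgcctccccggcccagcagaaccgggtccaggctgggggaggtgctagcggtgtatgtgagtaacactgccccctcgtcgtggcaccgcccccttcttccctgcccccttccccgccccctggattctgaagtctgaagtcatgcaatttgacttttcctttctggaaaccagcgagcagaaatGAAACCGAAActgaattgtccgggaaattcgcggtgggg
IL32 (chr16:3065153-3065452, plus strand): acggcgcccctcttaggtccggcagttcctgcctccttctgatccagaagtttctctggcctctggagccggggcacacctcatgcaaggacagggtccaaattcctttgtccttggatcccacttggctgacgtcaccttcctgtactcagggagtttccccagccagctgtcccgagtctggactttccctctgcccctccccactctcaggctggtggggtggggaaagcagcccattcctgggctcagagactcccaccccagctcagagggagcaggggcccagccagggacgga
IFIT1 (chr10:89392373-89392672, plus strand): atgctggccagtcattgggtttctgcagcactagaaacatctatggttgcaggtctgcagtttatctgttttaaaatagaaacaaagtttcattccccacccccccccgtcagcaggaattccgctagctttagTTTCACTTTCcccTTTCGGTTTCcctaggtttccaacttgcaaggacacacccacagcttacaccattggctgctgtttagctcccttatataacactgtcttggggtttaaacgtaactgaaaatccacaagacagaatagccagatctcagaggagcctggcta
BST2 (chr19:17405581-17405880, minus strand): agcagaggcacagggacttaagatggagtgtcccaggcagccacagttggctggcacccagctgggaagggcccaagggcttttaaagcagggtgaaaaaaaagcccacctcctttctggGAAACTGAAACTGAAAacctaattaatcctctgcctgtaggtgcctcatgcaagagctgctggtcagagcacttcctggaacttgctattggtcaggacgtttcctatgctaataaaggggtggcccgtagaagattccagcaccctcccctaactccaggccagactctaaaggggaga

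The first promoters of 6 of the 8 genes held the ISRE core, whereas 3.57% of all 35116 promoters in the table did. IFIT3 had 2 matches, beginning 156 and 122 bases before the start, and ISG15 had 2 that overlap each other, beginning 113 and 107 bases before it. In MX1 the single match began 11 bases after the start. IL32 had none, so these letters were not shared by all 4 genes with acetylated starts. Among the genes without H3K27ac, IFIT1 had 2 matches (116 and 103 bases before the start), IFI44L 2 (164 and 73) and BST2 2 that overlap each other (130 and 124). OAS1 had none with this spacing. Its promoter holds GAAA, 1 base and GAAA again, which the search did not count. The presence of the letters therefore did not separate genes with H3K27ac from those without it.

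The AP-1 site TGANTCA, found in 7.71% of all promoters, was in 0 of the first promoters of these 8 genes. The second of 3 MX1 promoters in the table held 1 match. The gamma-activated site TTCNNNGAA, found in 7.66% of all promoters, was in 2 of these first promoters (OAS1 and BST2). With 8 promoters neither count can be set apart from its share. CpG content differed more among the first promoters: those of ISG15 and MX1 each held 20 CpG dinucleotides, against 5 in IFIT3, 7 in IL32 and between 0 and 4 in IFIT1, OAS1, IFI44L and BST2. The median over the table was 14. These windows lie on GRCh38 and were not placed on hg19, so a match is a feature of the RefSeq promoter and not a site shown to lie under a peak.

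The IFIT genes lie near each other on chromosome 10. In the RefSeq table the coding gene IFIT1B lies between IFIT3 and IFIT1, and the coding gene LIPA overlaps IFIT1, IFIT2 and IFIT3. IFIT1 binds viral RNA that lacks the methylation of host caps, and IFIT2 binds RNA as well. The locus from the IFIT2 window to the IFIT1 window, hg19 chr10:91056706-91168742, is 112 kb long. H69M had 2 H3K27ac peaks in it, over 3.24 kb in total, and H69 had 0. H3K27me3 was listed in neither line. The peaks were the one over the IFIT3 start and another of 1774 bp at chr10:91110549-91112322 (score 303.7), which lay in the 41.6 kb between the IFIT3 and IFIT1 windows and had no H69 counterpart. To which gene of the locus each peak belongs was not tested.

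At the IFIT1 start the nearest H3K27ac peak was 21.7 kb downstream in both lines, where H69M had a peak of 1192 bp (score 231.8) and H69 one of 1161 bp (score 244.8). IFIT5, another member of the family, is the next coding gene on that side of IFIT1 in the RefSeq table. For IFIT2 the nearest peak lay 17.7 kb upstream in H69M (851 bp wide, score 104.7) and 112 kb away in H69. With windows widened to 25 kb on each side, which then also reached the IFIT3 start, IFIT2 had H3K27ac in H69M only. The site of like size in both lines thus lay outside the locus, beyond the IFIT1 window, while the 2 peaks inside it were listed in H69M only.

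**Figure D3:**
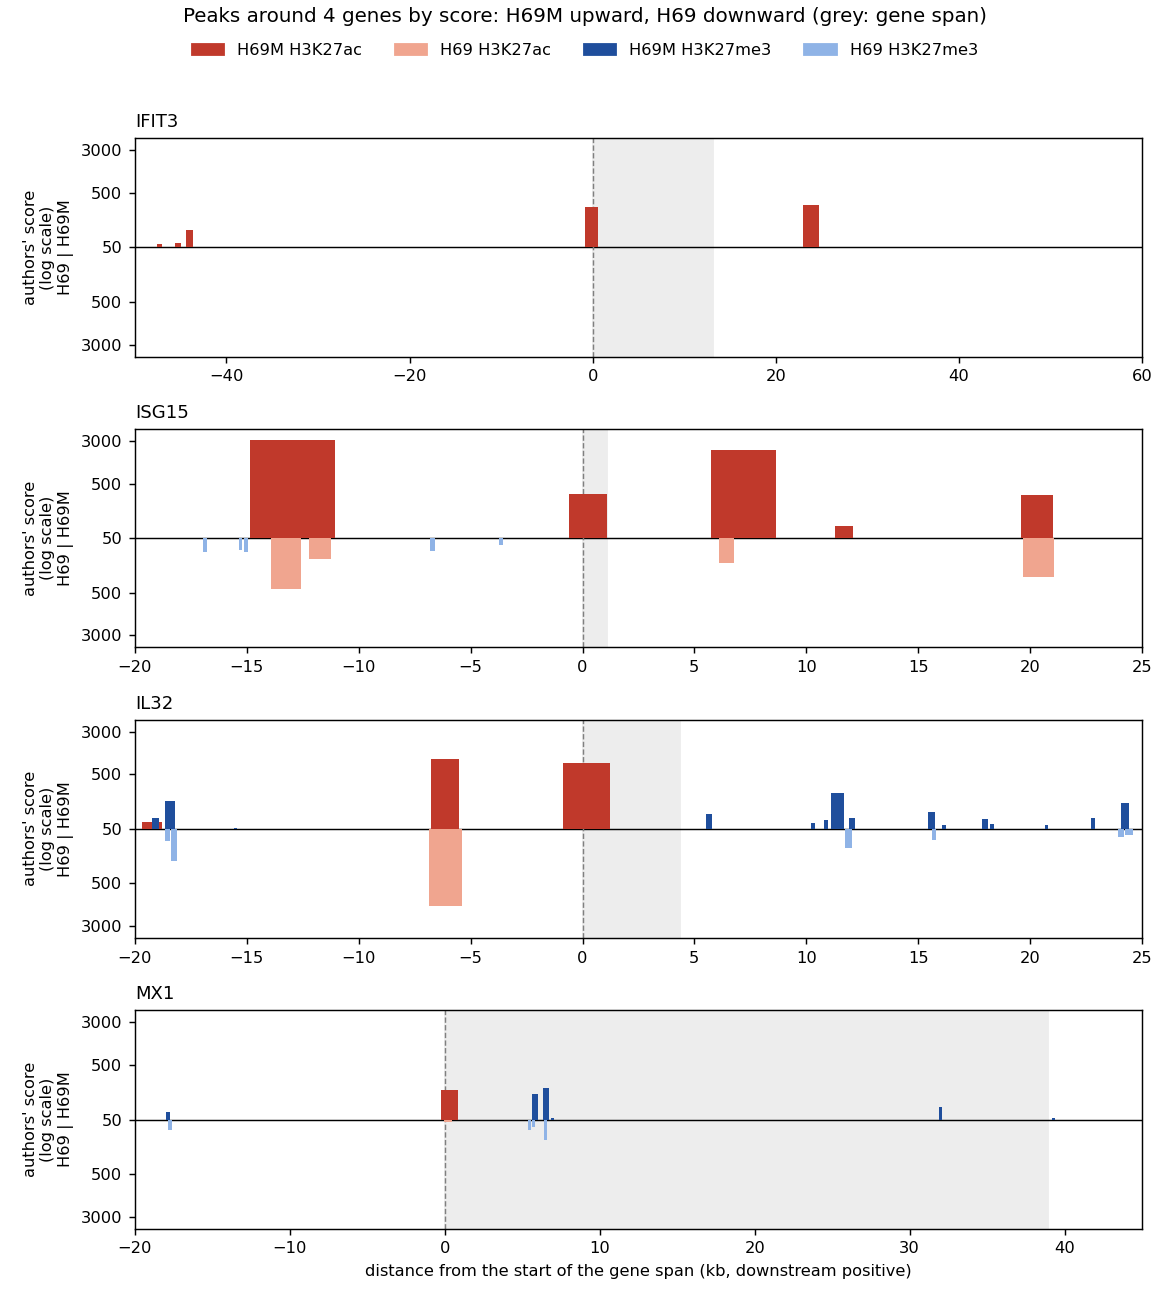
Peaks of both marks around the starts of IFIT3, ISG15, IL32 and MX1, plotted by distance from the span start (kb) and by the authors' score (log scale from 50), with H69M drawn upward and H69 downward; scores from different lists may not be on 1 scale. H69M peaks over the starts of IFIT3, ISG15 and IL32 have no downward counterpart, while the peak 5.38 kb upstream of IL32 is listed in both lines.

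Near the other genes H3K27ac peaks shared by the lines were often of like size. OAS1, which makes the oligoadenylates that activate RNase L, had its nearest peak 31.1 kb downstream in H69M (1098 bp, score 864.4) and 31.2 kb downstream in H69 (932 bp, score 874.1), toward OAS3, the next coding gene. BST2, also called tetherin, which holds budding virions at the cell surface, had its nearest peak 13.3 kb upstream in H69M (1952 bp, score 658.2) and 13.8 kb upstream in H69 (1620 bp, score 576.4). Upstream of IL32, a peak of 1252 bp in H69M (score 968.1) faced one of 1498 bp in H69 (score 1301.4), so there the H69 peak was the wider, although the IL32 start beside it was marked in H69M only.

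ISG15 differed in this respect. The nearest shared site on either side was wider in H69M. On the side of AGRN it was 2901 bp in H69M and 650 bp in H69, as given above. Toward HES4 a single H69M peak of 3789 bp (chr1:934003-937791, with 88.2% of the list scoring lower) overlapped 2 H69 peaks of 1326 and 989 bp (scores 428.4 and 121.5). Farther out the widths were alike at some shared sites and not at others. A site 52.2 kb upstream of the ISG15 start was 2755 bp wide in H69M and 2767 bp in H69. One 19.6 kb downstream in H69M and 19.7 kb in H69 was 1423 bp wide in H69M and 1353 bp in H69. Another, 50.2 kb downstream in H69M and 50.4 kb in H69, was 1192 bp wide in H69M and 477 bp in H69.

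TRIM22, an E3 ubiquitin ligase that restricts several viruses, and IFI44L, a widely used marker of the interferon response, lay far from any H3K27ac. The nearest peak to the TRIM22 start was 496 kb away in both lines. For IFI44L it was 128 kb upstream in H69M (602 bp, score 71.7) and 640 kb upstream in H69. Over the 10 starts the median distance to the nearest H3K27ac peak was 15.5 kb in H69M and 26.5 kb in H69, and in 5 genes (MX1, BST2, IFIT1, OAS1 and TRIM22) the nearest peaks of the lines overlapped each other.

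**Figure D4:**
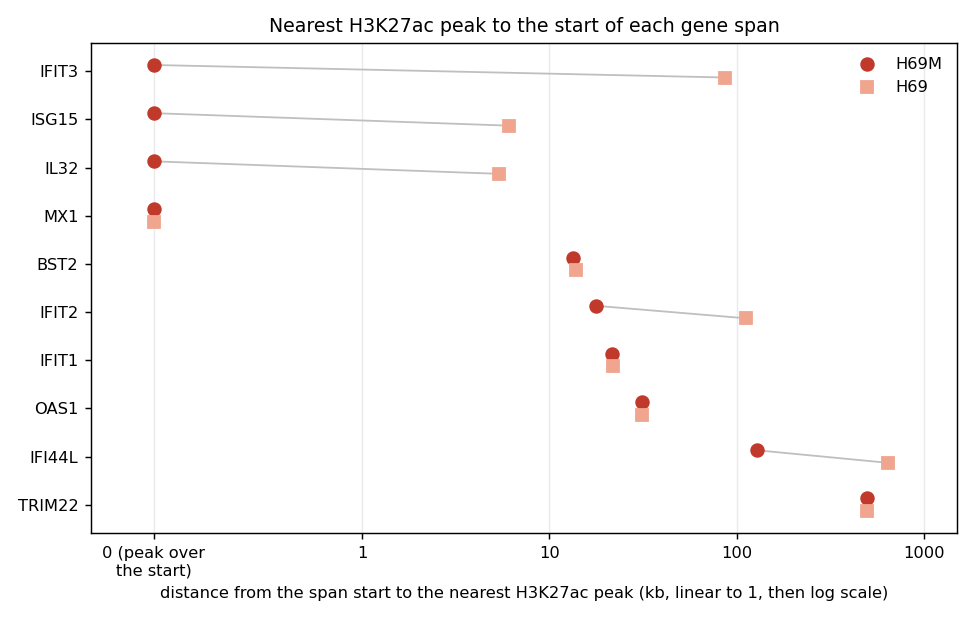
Distance in kb from the start of each gene span to the nearest H3K27ac peak (x axis, linear up to 1 kb and logarithmic beyond) in H69M (circles) and H69 (squares). At IFIT3, ISG15 and IL32 the H69M circle is at 0 and the H69 square at 86.4, 6.11 and 5.38 kb, whereas both symbols lie close together at MX1, BST2, IFIT1, OAS1 and TRIM22.

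The 100 kb on either side of the windows were merged into 8 regions, and every peak that reached into a window was left out whole. H69M had 75 H3K27ac peaks there over 122 kb, a mean of 1625 bp per peak. H69 had 58 over 96.7 kb, a mean of 1667 bp. The ratio was 1.26. Of these peaks 61.3% in H69M and 86.2% in H69 overlapped a peak of the other line. The amounts were uneven: the IL32 surroundings held 60.8 kb in H69M and 54.3 kb in H69, those of ISG15 26973 bp in H69M and 27313 bp in H69, and those of OAS1 5941 bp in H69M and 932 bp in H69, while 0 peaks were listed in either line around MX1, IFI44L and TRIM22. The ISG15 amounts leave out the 2901 bp H69M peak that entered the window by its edge. They keep the 650 bp H69 peak that it overlapped, so they do not rank the lines. At MX1 the peak over the start was thus the only H3K27ac within 100 kb of the window in either line. Copy number and library depth were not measured by these files, and their part in the differences was not tested.

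H3K27me3 covered 1573 bp of the 10 windows in H69M and 1384 bp in H69. A peak lay in the windows of 2 of the 10 genes in H69M (MX1 and IL32), beside 8.47% of all 20 kb tiles, and of 4 in H69 (ISG15, MX1, BST2 and TRIM22), beside 6.62% of tiles. Tiles also cover ground without genes and the windows differ in length, so these percentages are not a rate for gene windows. Of the 5 windows with a peak in either line, 2 were called longer in H69M by covered length and 3 were listed in H69 only. Among the tiles with a peak in either line, 50.8% were called longer and 28.2% shorter, the latter including the 23.6% listed in H69 only. With 5 windows these counts cannot be set apart from the shares of tiles. No H3K27me3 peak overlapped the 1 kb on either side of a span start in either line, and the nearest began or ended 5.52 kb from a start in H69M and 3.55 kb in H69.

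In 3 windows H3K27me3 was found in H69 only, in peaks scoring below 100. The median H69 H3K27me3 peak was 185 bp wide with a score of 66.9, so these peaks stood on both sides of the middle of their list. At ISG15 H69 had 1 peak of 175 bp, 3.55 kb upstream of the start (score 65.8), and H69M had 0 in the window. At BST2 H69 had peaks of 251 and 191 bp beyond the far end of the gene (scores 99.9 and 59.6, with 85.6% and 24.3% of the list lower), and H69M had 0 in the window. H69M peaks lay farther out: with 10 kb flanks BST2 had 466 bp in H69M and 1565 bp in H69. With 25 kb flanks it had 1875 and 2918 bp, a ratio of 0.643, and was no longer called shorter. TRIM22 had 1 H69 peak of 183 bp, 19.7 kb downstream of its start (score 75.2), and 0 in H69M. IL32 went the other way, with 1 H69M peak of 253 bp 5.52 kb downstream (score 93.2) and 0 in H69. Across the H69 list, 73.6% of the H3K27me3 peaks scoring below 100 had no H69M counterpart, so most H69 peaks of the class to which those at ISG15, BST2 and TRIM22 belong lacked one. With only peaks of score 100 or more MX1 alone kept H3K27me3, in both lines.

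MX1 had the most H3K27me3 peaks of the 10 windows in H69M. MX1 also had the longest window, 48911 bp against a median of 22197.5 bp, and the count was not scaled to length. H69M had 5 peaks over 1320 bp in its window and H69 had 3 over 584 bp, a ratio of 2.26. With the lists cut to equal numbers of peaks it was 999 bp in H69M against 584 bp in H69, a ratio of 1.71, and MX1 was then no longer called longer. In H69M the first 3 lay between 5601 and 7021 bp downstream of the start, with scores of 148.8, 192.1 and 54.0, and the others 31915 and 39205 bp downstream (scores 85.3 and 53.0). All 3 of the H69 peaks lay between 5341 and 6621 bp downstream, with scores of 76.7, 68.4 and 116.5. In both lines the H3K27me3 group thus lay over the same stretch inside the gene, downstream of the acetylated start. RefSeq lists 3 MX1 starts on GRCh38, of which the second lies 5681 bases after the first and has a promoter with 30 CpG dinucleotides and no ISRE core, and the third 11492 bases after it. Since no position was moved between builds, the distances are given side by side only.

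In the windows, 2 of the 6 H69M peaks of H3K27me3 overlapped an H69 peak and 2 of the 7 in H69 overlapped an H69M peak, all at MX1. Across the lists 81.1% of H69M and 67.4% of H69 H3K27me3 peaks had no counterpart. Both marks were present in 2 windows in H69M (MX1 and IL32) and in 1 in H69 (MX1), while 1.51% of all tiles held both in H69M and 1.09% in H69. Tiles also cover ground without genes, and the MX1 window is longer than a tile, so these shares are not a rate for gene windows. No H3K27ac peak in the windows overlapped an H3K27me3 peak of the same line. None of the 3 starts with H3K27ac in H69M only (IFIT3, ISG15 and IL32) lay under an H69 H3K27me3 peak. The share of all H3K27ac peaks that overlap H3K27me3 was not computed. The H69 H3K27me3 list covers 4.91 Mb in peaks with a median width of 185 bp. Few starts of any kind can lie under such peaks, so no conclusion is drawn from these counts.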

How the data were processed

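Chromatin from H69M and H69 was immunoprecipitated with an H3K27ac or an H3K27me3 antibody, per the labels' protocols. Per the submitters' processing notes the build was hg19 and Bowtie2 and SAMtools 0.1.19 were used. Each antibody library has 1 deposited peak list, whose peak names carry the word MACS, and the deposited score per peak is the authors' own, with its definition not given in the sources used here. The score was used only to rank or filter peaks within a list and to form score classes. The 2 input libraries were not analysed here.

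Peaks on chromosomes 1 to 22 and X were used, with starts converted to 1-based positions. Covered length is the number of bases under peaks inside a window, and a call needed more than 2-fold or a peak in 1 line only. Background percentages come from non-overlapping 20 kb tiles. Intervals are exact binomial at 95% and cover counting error only. The named genes are all 10 members, with spans on hg19 as given by the rule. Members and lists were chosen with earlier results of these data known. Coverage, calls and sharing were tested on simulated data. Python 3.11.15, pandas 2.3.3, NumPy 2.4.6 and SciPy 1.17.1 were used. No other interferon-response genes were analysed here, since no hg19 annotation was at hand.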

Additional observations from a re-analysis of the deposited data

How the results depend on the processing

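The start of 4 genes was marked by H3K27ac in H69M under every alternative tried (equal numbers of peaks, scores of 100 or more, start windows of 500 and 2500 bp). For H69 the count of 1 became 0 at scores of 100 or more. Windows called longer numbered between 3 and 5 and windows called shorter 0 under all alternatives, which also included flanks of 0, 10 and 25 kb and limits of 1.5-fold and 3-fold. Windows listed in H69M only are counted among those called longer. With 10 kb flanks ISG15 and IL32 had H3K27ac in both lines. H69M peaks without a counterpart numbered 3 of 5, and 4 of 5 at scores of 100 or more, where the H69 peak at MX1 was lost. They numbered 5 of 5 when 50% of a peak had to overlap. Without flanks they were 3 of 4, with a 10 kb flank 4 of 7 and with a 25 kb flank 10 of 18.

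H3K27me3 depended more on the settings. Without flanks it was listed for 1 gene in H69M and 2 in H69, and at scores of 100 or more for 1 in each. The 2 windows called longer in H69M became 1 with equal numbers of peaks (IL32), without flanks (MX1) and at scores of 100 or more (MX1). The 3 called shorter (which include those listed in H69 only) became 1 without flanks, 0 at scores of 100 or more and 2 with 25 kb flanks (ISG15 and TRIM22). From 10 kb flanks on, BST2 had H3K27me3 in both lines. Both marks were found in 1 window in H69M without flanks and 1 at scores of 100 or more. In H69 they were found in 0 windows at scores of 100 or more, 3 with a 10 kb flank and 4 with 25 kb. An H3K27ac peak overlapped H3K27me3 only with a 25 kb flank (1 in H69M).

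The percent of tiles longer in H69M for H3K27ac was 34.2 with equal numbers of peaks, 41.9 at scores of 100 or more, 51.2 at 1.5-fold, 36.9 at 3-fold, 43.9 in 10 kb tiles and 41.7 in 50 kb tiles. For H3K27me3 it was 34.2, 63.4, 55.2, 45.8, 52.4 and 48.5 in the same order. The cause of these shifts was not tested. No paired analysis was possible because each group holds 1 sample. Read depth is unknown, so weak peaks limit every statement about a missing mark.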
